A study of Homo sapiens with 6 samples.

Results

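The 10 genes described here encode RNA-binding proteins that give a tissue or an epithelium its own pattern of exons: RBM47, ESRP1 and ESRP2, KHDRBS1 and KHDRBS3, QKI, RBFOX2, CELF1, MBNL1 and MBNL2. They were chosen by name. RBM47 and KHDRBS3 are genes that the study itself picked from these RNA-seq data for follow-up, so their direction is not independent evidence, and the other 8 are regulators of tissue-type splicing put beside them. Each of the 10 was found as 1 locus among the 47577 loci of the expression table, 26793 of which carry a gene symbol, and all 10 passed the minimum set for testing, as did 17568 loci in all. OVCAR3, the only cell line used, was established from a high-grade serous ovarian adenocarcinoma. Cultures received the solvent DMSO (3 libraries) or THZ531 at 200 nM (3 libraries) for 6 h, and the replicates of each group are described as biological. THZ531 is a covalent inhibitor of CDK12 and CDK13, kinases that phosphorylate RNA polymerase II during elongation. The sample titles and the series design name THZ531, whereas 1 protocol field names THZ1 at the same dose. Polyadenylated RNA was sequenced, so the values are levels of RNA per gene locus in the whole culture. Neither exon inclusion nor protein was read from them, and fewer cells expressing a gene cannot be told apart from less RNA per cell.

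As background, regulators of this kind bind short motifs in a pre-mRNA near an exon and raise or lower its inclusion according to the position at which they bind. ESRP1 and ESRP2 are the epithelial splicing regulators and maintain exon choices of epithelial cells, such as those in FGFR2, CD44, CTNND1 and ENAH, while QKI and RBFOX2 promote exon choices typical of mesenchymal cells. The MBNL and CELF families act against each other on many exons of developing muscle. KHDRBS1 (Sam68), KHDRBS3 (SLM2) and QKI belong to the STAR family of KH-domain proteins.

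A few DNA sequences go with the values given later, all in hg38 and 5′ to 3′. The first pair are the designed qPCR primers of the study for RBM47, shown because they place the follow-up measurement in the gene. They lie in exons 6 and 7 of the 7 exons of the reference (MANE) transcript, at chr4:40432651-40432669 and chr4:40426012-40426032, and the gene is read from the minus strand.
RBM47 forward primer: gacgccaccacctttccag
RBM47 reverse primer: gttcttctgtagtgtggcgat
The next set belongs to loci without a symbol that lie in intron 2 of MBNL1 and of MBNL2, where RNA was counted almost only after THZ531. Each line holds the last 100 bases of the locus and the 20 bases after it, and capitals mark the last AATAAA, the usual poly(A) signal hexamer, in that window. In the distal locus it lies beyond the end of the locus.
MBNL1 proximal locus, chr3:152302700-152302819, plus strand: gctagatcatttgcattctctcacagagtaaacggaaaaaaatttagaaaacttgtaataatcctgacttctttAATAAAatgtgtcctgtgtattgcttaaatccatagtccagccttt
MBNL1 distal locus, chr3:152331505-152331624, plus strand: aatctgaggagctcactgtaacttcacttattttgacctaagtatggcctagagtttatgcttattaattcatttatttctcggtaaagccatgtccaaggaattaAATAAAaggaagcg
MBNL2 intron 2 locus, chr13:97281951-97282070, plus strand: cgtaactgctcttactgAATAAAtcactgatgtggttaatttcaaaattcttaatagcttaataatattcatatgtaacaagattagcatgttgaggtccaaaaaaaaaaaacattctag
The 5′ splice sites of the introns that hold these loci follow, with the GT that opens the intron in capitals.
MBNL1 intron 2, chr3:152300358-152300387, plus strand: ttcattgaaaGTgagtaactattatattct
MBNL2 intron 2, chr13:97276400-97276429, plus strand: ttccctaaagGTaagagaatgcgttttatg

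Values are normalised read counts as deposited, and 1 read was worth between 0.79 and 1.26 units according to the library. Differences are given as the log2 of THZ531 over DMSO on values plus 1, with the standard error (SE) and the Benjamini-Hochberg adjusted p of a limma fit over all 17568 loci. A locus is called regulated at a change of at least 1.5-fold with an unadjusted p of at most 0.05. By this rule 39.5% of all loci tested were called, 15.7% higher and 23.9% lower, and of those with a symbol 37.0%, 13.3% higher and 23.7% lower. Of the 10 regulators 4 were called, KHDRBS3 and QKI higher and RBM47 and ESRP2 lower, a share near that background. In all 10 the THZ531 libraries lay outside the range of the DMSO libraries, which held for 71.7% of all loci, and all 10 had an adjusted p under 0.05, 5 higher and 5 lower, as did 68.6% of all loci, 34.6% higher and 34.1% lower. The median log2 difference of the regulators was −0.11, beside −0.01 over all loci.

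**Figure D1:**
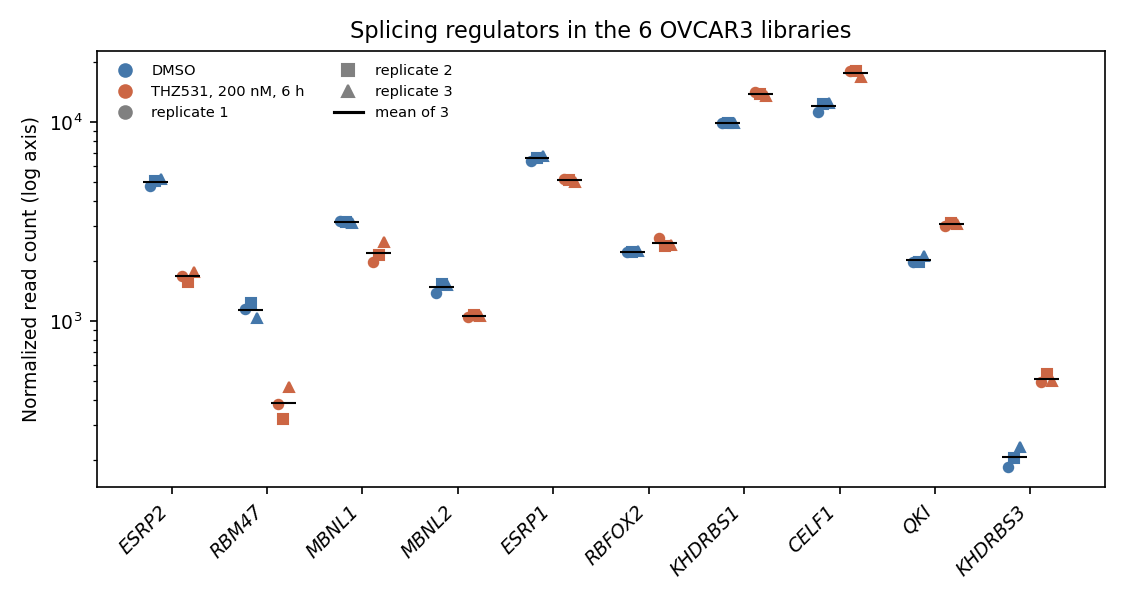
Normalised read counts (log axis) of the 10 regulators in each library, 3 of DMSO and 3 of THZ531 at 200 nM for 6 h, with marker shapes for replicates. RBM47 and ESRP2 sit lower and KHDRBS3 and QKI higher after THZ531, by more than 1.5-fold, and in none of the 10 do the groups overlap.

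Of the epithelial regulators, ESRP2 and RBM47 were called lower and ESRP1 was not. ESRP2, with its relative ESRP1, holds epithelial exons in the mature RNA. Its values were 4744, 5028 and 5158 in DMSO and 1689, 1575 and 1768 in THZ531. Each THZ531 library was well under each DMSO library, and the spread within a group was small beside the distance between groups. The mean was 2.97-fold lower after THZ531, with a log2 difference of −1.57 (SE 0.05, adjusted p = 1.1e-12, n = 3 per group). ESRP2 lies at chr16:68229033-68236584 on the minus strand and is the shortest of the 10, at 7.55 kb. Its end overlaps that of NFATC3, the gene of a calcium-responsive transcription factor on the opposite strand, which rose from 2425 ± 25.0 to 4315 ± 121 (SD, n = 3). Whether counting used the strand is not given in the sources used here, so reads in that overlap cannot be told apart.

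ESRP1 moved the same way by less. It was at 6347, 6598 and 6733 in DMSO and at 5194, 5125 and 4974 in THZ531. The groups were apart, but the log2 difference of −0.36 (SE 0.04, adjusted p = 7.2e-07) was under 1.5-fold. Within each library the ratio of ESRP1 to ESRP2 was therefore compared, which no scaling of libraries can alter. The log2 ratio was 0.42, 0.39 and 0.38 in DMSO and 1.62, 1.70 and 1.49 in THZ531. ESRP1 thus stood 2.31-fold higher against ESRP2 after THZ531, with all 3 libraries apart, at the smallest p that 3 against 3 allow (0.1, exact permutation test, two-sided, 0.13 adjusted over 8 ratios).

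RBM47, an RNA-binding protein of epithelial tissues with roles in splicing and in mRNA editing, fell. The DMSO libraries held 1147, 1236 and 1036 and the THZ531 libraries 383, 322 and 465. The lowest DMSO library was above the highest THZ531 library, although replicates varied more than those of ESRP2. The mean was 2.92-fold lower, and the log2 difference was −1.56 (SE 0.11, 95% interval −1.80 to −1.31, adjusted p = 5.8e-09). RBM47 spans 207 kb at chr4:40423280-40630623. The primers printed above fall in its last exons, and the whole-gene value does not separate these from the exons before them. A further locus inside its intron 2 held 9 reads over the DMSO libraries and 0 over the THZ531 libraries, too few to be tested.

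Of the STAR family genes, KHDRBS3 and QKI were called higher and KHDRBS1 was not. KHDRBS3, which acts in splicing mainly in brain and testis, rose. It was the least abundant of the 10 per length of exon in DMSO, with 184, 205 and 234 normalised reads, and reached 496, 544 and 502 in THZ531. No THZ531 library came near the DMSO range. The mean rose 2.48-fold, with a log2 difference of 1.31 (SE 0.12, 95% interval 1.06 to 1.56, adjusted p = 6.2e-08). KHDRBS1, its broadly expressed relative, lay at 9882, 9859 and 9835 and then at 14059.5, 13727 and 13496. That is a log2 difference of 0.48 (SE 0.03, adjusted p = 3.8e-09) and under 1.5-fold, and it turned to −0.01 when libraries were scaled to RPL34, the reference transcript of the study's qPCR. KHDRBS1 overlaps TMEM234 on the opposite strand, whose values went from 413 ± 52.7 to 155 ± 9.44 (SD, n = 3). Per library, the log2 ratio of KHDRBS3 to KHDRBS1 was between −5.74 and −5.39 in DMSO and between −4.82 and −4.65 in THZ531. It was thus 1.78-fold higher after THZ531, with the groups apart (exact permutation p = 0.1, 0.13 adjusted over 8 ratios).

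QKI, which controls splicing and the formation of circular RNAs in mesenchymal and glial cells, rose by an amount close to the threshold. Its values were 1990, 1982 and 2118 in DMSO and 2990, 3110 and 3068 in THZ531. The groups were far apart for their spread, and the mean rose 1.51-fold, with a log2 difference of 0.59 (SE 0.05, adjusted p = 2.5e-08). QKI was the member just inside the 1.5-fold threshold. Its call was lost in 8 of 19 alternatives, among them leaving out DMSO replicate 1 (0.58), DMSO replicate 2 (0.57) or THZ531 replicate 2 (0.58), and its log2 difference was 0.10 when libraries were scaled to RPL34.

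CELF1 was the member just outside. CELF1 binds GU-rich RNA and acts on splicing in the nucleus and on mRNA decay in the cytoplasm. It was at 11147, 12269.7 and 12398 in DMSO and at 18055, 18075 and 16779.6 in THZ531. The ratio of means was 1.48, and the log2 difference 0.56 (SE 0.04, adjusted p = 1.3e-08), with the groups apart. CELF1 was called when DMSO replicate 3 (0.59) or THZ531 replicate 3 (0.60) was left out, and its log2 difference was 0.07 when libraries were scaled to RPL34.

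RBFOX2, which binds UGCAUG and acts on exons of epithelial to mesenchymal transition, muscle and neurons, had the smallest difference of the 10 with values as deposited, though not when scaled to RPL34. It was at 2224, 2218 and 2258 in DMSO and at 2609.6, 2390.5 and 2396 in THZ531. The groups did not overlap, but the log2 difference was only 0.14 (SE 0.05, adjusted p = 0.023), and it was −0.10 with libraries scaled to the same total and −0.35 when scaled to RPL34. Its direction therefore depends on the scaling. In limma its adjusted p was 0.12 without THZ531 replicate 1 and 0.066 without DMSO replicate 2, and under 0.05 with any other library left out.

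Both muscleblind genes were lower after THZ531, by less than 1.5-fold. MBNL1, which promotes the exon choices of mature muscle, was at 3179.6, 3128 and 3097 in DMSO and at 1979.9, 2136 and 2486 in THZ531. The groups were apart, and THZ531 replicate 3 was nearest to DMSO. The log2 difference was −0.52 (SE 0.07, adjusted p = 4.1e-06), and −0.61, past the fold threshold, without that library. MBNL2, the relative that acts mainly in brain, was at 1385, 1539 and 1514 in DMSO and at 1049, 1079 and 1060.3 in THZ531. Its log2 difference was −0.48 (SE 0.06, adjusted p = 5.2e-06). The log2 ratio of MBNL2 to MBNL1 was −1.08 ± 0.10 in DMSO and −1.04 ± 0.16 in THZ531 (SD, n = 3), the groups overlapped, and no difference was detectable (exact permutation p = 0.6). On the opposite strand at MBNL1, the antisense transcript MBNL1-AS1 was called lower, at 195 ± 23.5 in DMSO and 103 ± 15.4 in THZ531 (log2 difference −0.92, adjusted p = 2.4e-04). Reads in any shared exon cannot be told apart without strand.

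**Figure D2:**
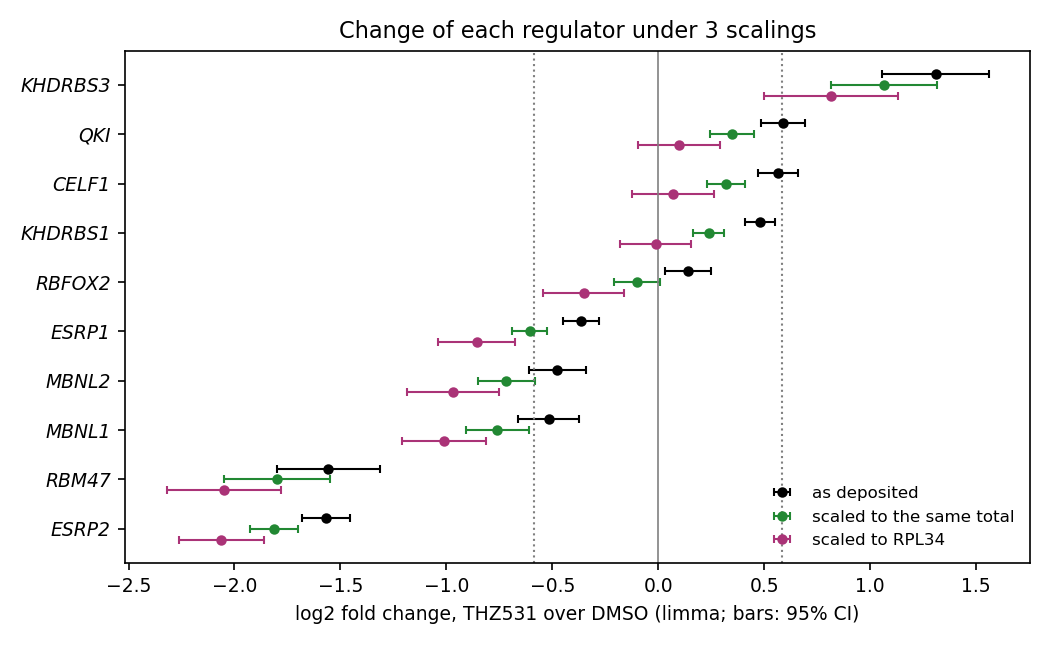
Log2 fold change of each regulator (THZ531 over DMSO) with values as deposited and under other scalings of the libraries, among them to the same total and to RPL34. Bars are 95% intervals of the limma fit and dotted lines mark a change of 1.5-fold. RBM47, ESRP2 and KHDRBS3 stay past the lines under each scaling, QKI does not, and RBFOX2 and KHDRBS1 cross 0.

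The choice of scaling moved the 10 regulators almost alike. The THZ531 libraries held larger sums of normalised values, so scaling to the same total lowered their log2 differences by 0.24 and scaling to RPL34, itself at 12999 ± 1179.5 in DMSO and 18247 ± 86.8 in THZ531, lowered them by 0.49. Loci of very low level moved by less, because of the value of 1 added. ESRP1, MBNL1 and MBNL2 then passed the fold threshold, at −0.61, −0.76 and −0.72 with the same total and −0.86, −1.01 and −0.97 with RPL34. With the same total 6 regulators were called, 1 higher and 5 lower, where 9.38% of all loci were called higher and 32.0% lower. With RPL34 the split was again 1 and 5, where the shares of all loci were 6.14% and 42.8%. RBM47, ESRP2 and KHDRBS3 were called in the same direction in all 19 alternatives run, with log2 differences from −2.05 to −1.43, from −2.06 to −1.53 and from 0.82 to 1.40.

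Levels can be set side by side between genes only per length, here as normalised reads per kb of annotated exon. In DMSO the order was KHDRBS1 (2782), ESRP1 (1346), CELF1 (1131), ESRP2 (959), MBNL1 (314), MBNL2 (284), RBFOX2 (181), RBM47 (133), QKI (117) and KHDRBS3 (23.7). RBM47 and QKI overlapped in their libraries, and the other neighbours did not. After THZ531 KHDRBS1 (3883) was still first, and CELF1 (1671) stood above ESRP1 (1046). ESRP2 followed at 323, then MBNL1 (220), MBNL2 (204), RBFOX2 (200) and QKI (176), of which MBNL1 overlapped MBNL2 and MBNL2 overlapped RBFOX2. KHDRBS3 (58.6) was now above RBM47 (45.6), which moved from eighth place to last.

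The regulators differ widely in gene length. RBFOX2 spans 290 kb, MBNL2 252 kb, MBNL1 222 kb, RBM47 207 kb, KHDRBS3 190 kb, QKI 164 kb, CELF1 99.6 kb, ESRP1 66.4 kb, KHDRBS1 47.0 kb and ESRP2 7.55 kb. The genes that fell most, ESRP2 and RBM47, are the shortest and the fourth longest of the 10, and KHDRBS3, which rose most, is 190 kb long. AATAAA, searched on the gene's own strand over the whole span, occurs 262 times in MBNL1, 260 in MBNL2, 240 in RBFOX2, 203 in KHDRBS3, 182 in QKI, 161 in RBM47, 57 in CELF1, 41 in ESRP1, 33 in KHDRBS1 and 0 in ESRP2. These counts are a description of the sequence.

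RNA from inside the long genes can be followed through loci that carry no symbol. The table has 22 such loci wholly within the 10 regulators, all on the strand of their host as inferred from the order of identifiers, and 5 passed the minimum, while 17 were too low. Of the 5, 4 were called higher, in RBFOX2, MBNL1 and MBNL2, by limma, edgeR and DESeq2 alike. Among all 1355 loci of this kind tested, 38.9% were called higher and 21.3% lower. The 3 called loci in the MBNL genes passed the minimum only through their THZ531 libraries, so that they had to be higher to be tested, and their count supports nothing. Their values are therefore given as a description, with no test.

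The proximal MBNL1 locus, 285 bases at chr3:152302515-152302799, starts 2148 bases into intron 2, which is 114.573 kb long. It held 2, 2 and 0 reads in DMSO and 40, 50 and 38 in THZ531. The normalised values were 1.59, 1.86 and 0 against 50.4, 56.8 and 43.2, a log2 difference of 4.71. The distal MBNL1 locus, 1811 bases at chr3:152329794-152331604, starts 29427 bases into the same intron. It held 14, 8 and 10 reads in DMSO and 122, 140 and 104 in THZ531, and its mean normalised value was 16.3-fold higher, a log2 difference of 3.89. In both loci every THZ531 library lay far above every DMSO library. Among the THZ531 libraries, replicate 3 held the most MBNL1 and the least of both loci, whereas replicate 2 held more MBNL1 than replicate 1 and also more of both loci. No relation across these libraries was tested.

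The MBNL2 intron 2 locus, 1506 bases at chr13:97280545-97282050, starts 4136 bases into an intron of 57.866 kb. It held 0 reads in each DMSO library and 31, 18 and 12 reads in THZ531. Against an assumed limit of 3 reads per DMSO library, its mean normalised value was 9.68-fold higher. This is no firm bound, because both ends of a fragment may have been counted. The THZ531 libraries differed from one another by more than those of the MBNL1 loci. A lncRNA of GENCODE, ENSG00000286334 at chr13:97278768-97295400, covers this locus from the opposite strand, so the strand of these reads is not settled. A run of 12 A follows its end in the genome, as seen in the sequence printed above, and its AATAAA lies 83 bases before the end. In the proximal MBNL1 locus the AATAAA lies 26 bases before the end, and in the distal locus the last 50 bases hold none. AATAAA occurs on the inferred strand in the last 50 bases of 54.3% of all loci tested and of 20.8% of loci without a symbol inside a named one. Among the latter, the share was 20.8% in loci called higher and 20.7% in the others.

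A locus in MBNL2 intron 5 was not called. It held 8, 24 and 1 reads in DMSO and 2, 15 and 18 in THZ531, with overlapping groups, a log2 difference of 0.72 and an adjusted p of 0.49. Within each library, the log2 ratio of the proximal locus to MBNL1 was 5.22 higher after THZ531, that of the distal locus 4.40 higher, and that of the intron 2 locus to MBNL2 5.02 higher. These differences are given without a test for the same reason. Where a locus had 0 reads the size of this ratio depends on the value of 1 added, and it is no bound. The MBNL1 and MBNL2 loci themselves were lower at the same time, as described above.

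**Figure D3:**
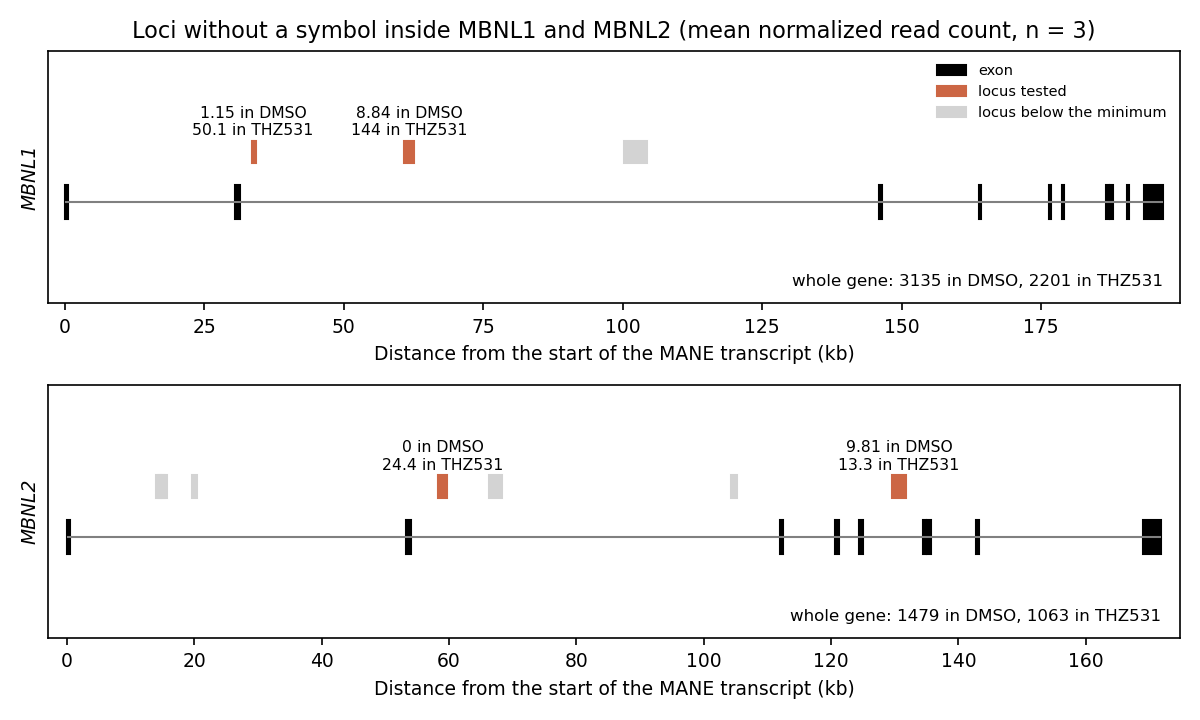
Maps of MBNL1 and MBNL2 (distance in kb from the start of the reference transcript) with exons as blocks and loci without a symbol marked. Normalised values of the tested loci in DMSO and THZ531 are given with them. Narrow features are drawn wider than they are so that they can be seen, and loci before the transcript start are left out. Both MBNL1 loci and the intron 2 locus of MBNL2 are near 0 in DMSO and raised in all 3 THZ531 libraries. They passed the minimum only through those libraries, so this is a description.

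The inner locus of RBFOX2 is of another kind. It lies at chr22:35838278-35839433 and held 14354, 15182 and 14447 normalised reads in DMSO and 22823, 22166 and 22115 in THZ531, many more than RBFOX2. The log2 difference was 0.61 (SE 0.03, adjusted p = 3.0e-10), with the groups apart. RefSeq places the pseudogene RPL41P3 over its part of lower coordinates (chr22:35838275-35838697), and those 423 bases are 96.5% identical to part of the RPL41 transcript, which codes for a ribosomal protein. RPL41 itself was at 22044 ± 2459 in DMSO and 36429.9 ± 335 in THZ531, so reads of RPL41 and of this locus may be shared and its value is uncertain. The log2 difference of the locus was 0.37 with the same total and 0.12 scaled to RPL34.

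**Figure D4:**
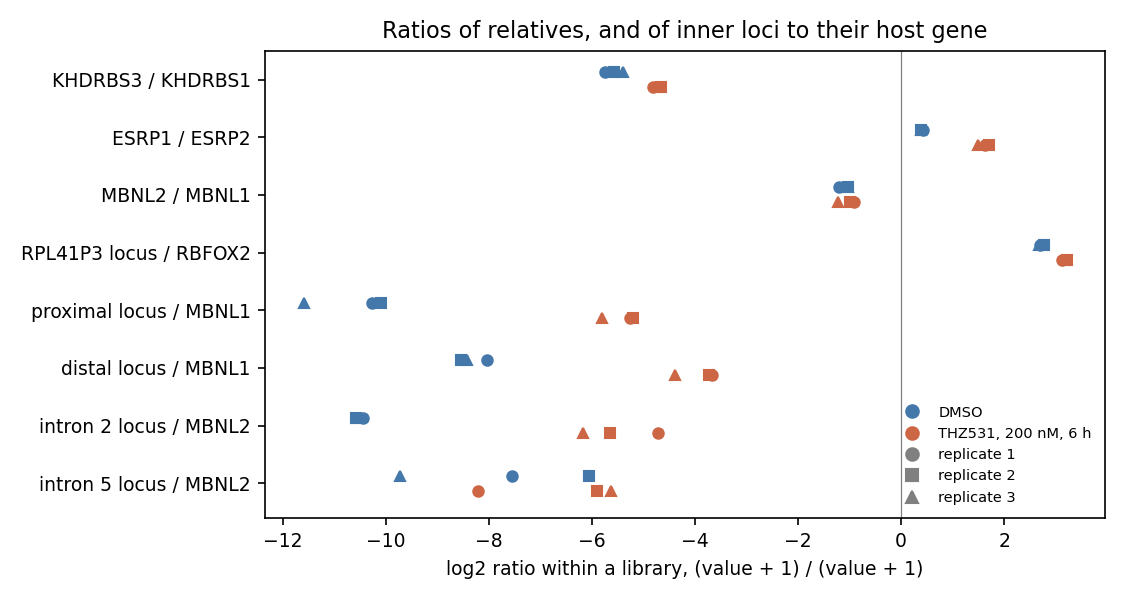
Log2 ratios within each library for the 3 pairs of relatives and for inner loci against their host gene, with DMSO and THZ531 in separate colours and a marker shape per replicate. ESRP1 to ESRP2 and KHDRBS3 to KHDRBS1 are higher in all 3 THZ531 libraries, and MBNL2 to MBNL1 overlaps. The inner loci other than that in MBNL2 intron 5 are higher against their host. Of these, all but the RBFOX2 locus passed the minimum only through their THZ531 libraries, so their higher ratios support nothing.

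Beside these, 31 other tissue-type splicing regulators were listed, of which 22 passed the minimum. Of the 22, 11 were called, 5 higher and 6 lower, with a median log2 difference of −0.11, beside 39.5% of all loci called, 15.7% higher and 23.9% lower. RBM24, called higher, and NOVA2, CELF6 and RBM20, called lower, passed the minimum only through the group in which they were higher. Their part in these counts therefore supports nothing. The calls split into 2 higher and 10 lower with libraries scaled to the same total, where 9.38% of all loci were called higher and 32.0% lower. They split alike when scaled to RPL34, where these shares were 6.14% and 42.8%. PTBP1, PTBP2 and PTBP3 encode polypyrimidine tract proteins, which repress neuronal and muscle exons. PTBP1 rose from 29504 ± 452 to 46587 ± 527 (log2 difference 0.66, adjusted p = 3.3e-11) and its neuronal relative PTBP2 from 607 ± 5.96 to 937 ± 23.6 (0.63, adjusted p = 1.0e-06). PTBP3 was higher by 0.47, under 1.5-fold, and was not called. RBM4, which opposes PTBP1 on muscle exons, rose from 8794 ± 314 to 13817 ± 355 (0.65, adjusted p = 4.1e-10). With libraries scaled to the same total, none of PTBP1, PTBP2 and RBM4 passed the fold threshold, at 0.42, 0.38 and 0.41. RBM24, a muscle regulator, was at 9.53, 1.86 and 9.57 in DMSO and at 32.7, 29.6 and 36.4 in THZ531, a log2 difference of 2.31 and of 1.68 without DMSO replicate 2. It passed the minimum only through its THZ531 libraries, so no test of it is given. CELF4, a neuronal relative of CELF1, rose from 70.1 ± 8.46 to 171 ± 33.0 (1.27, adjusted p = 3.5e-05).

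The 6 genes called lower were NOVA2, RBFOX3, MSI1, CELF5, CELF6 and RBM20. NOVA2, a neuronal splicing regulator, fell from 76.5 ± 17.2 to 15.3 ± 9.71 (log2 difference −2.38). RBFOX3, the neuronal relative of RBFOX2, fell from 450.1 ± 105 to 257 ± 12.7 (−0.78, adjusted p = 1.2e-04). MSI1, a regulator of neural progenitors, fell from 125 ± 6.31 to 77.5 ± 24.8 (−0.74, adjusted p = 0.012), and was not called without THZ531 replicate 1 (−0.48). CELF5 (−1.39, adjusted p = 0.013), CELF6 (−2.06) and RBM20 (−1.20) were called as well, but their groups overlapped. NOVA2, CELF6 and RBM20 passed the minimum only through their DMSO libraries, so their calls support nothing and no test of them is given. CELF6 lost its call without DMSO replicate 2 (−1.76), DMSO replicate 3 (−2.06) or THZ531 replicate 3 (−0.82), and was −2.81 without THZ531 replicate 2. RBM20 lost its call without DMSO replicate 2 (−0.80) or without THZ531 replicate 1 (−0.77) or 2 (−1.04), and was −1.79 without THZ531 replicate 3. MBNL3, the third muscleblind gene, was at 54.8, 46.4 and 45.5 in DMSO and 55.4, 22.7 and 23.9 in THZ531 and was not called (−0.63, adjusted p = 0.13), though it was without THZ531 replicate 1 (−1.03). KHDRBS2, RBFOX1 and CELF2, relatives of regulators described here, had 0 reads in all 6 libraries. If reads were independent, this allows up to 3 reads in each. CELF3 held 4 reads over the DMSO libraries and 2 over the THZ531 libraries and was not tested.

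**Figure D5:**
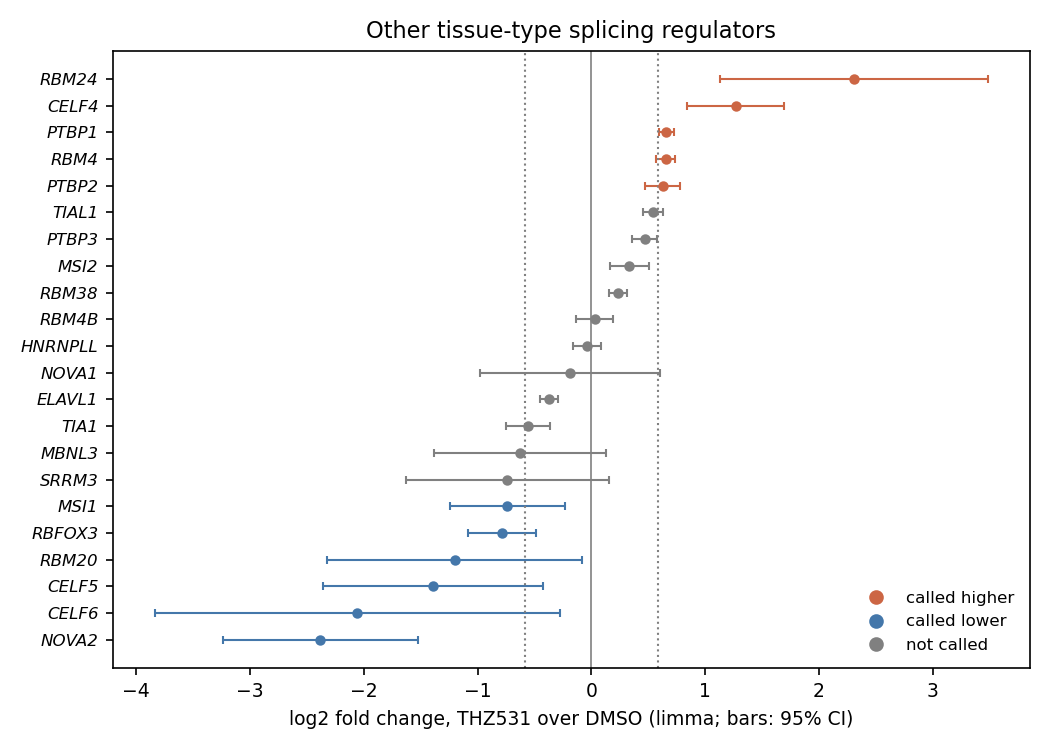
Log2 fold change (THZ531 over DMSO) of the 22 other splicing regulators that passed the minimum, with 95% intervals of the limma fit. Dotted lines mark a change of 1.5-fold. PTBP1, PTBP2, RBM4, RBM24 and CELF4 are called higher, and NOVA2, RBFOX3, MSI1, CELF5, CELF6 and RBM20 lower. RBM24, NOVA2, CELF6 and RBM20 passed the minimum only through the group in which they were higher, so their calls and intervals support nothing.

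Genes whose exons these proteins are known to control were read for their level only. Of 19 such genes, 17 passed the minimum and 3 were called, NRXN3, TNNT2 and ATP2A1, all lower, with a median log2 difference of −0.08 over the 17. Of all loci 39.5% were called and 23.9% were called lower. NRXN3, a synaptic adhesion gene with an exon controlled by KHDRBS3, fell from 64.5 ± 12.7 to 28.0 ± 7.35 (−1.18, adjusted p = 0.0030). TNNT2, the cardiac troponin T gene with an exon on which MBNL1 and CELF1 act in opposite ways, fell from 123 ± 24.7 to 51.3 ± 24.8 (−1.36, adjusted p = 0.0015). ATP2A1, the calcium pump of fast muscle, fell from 65.3 ± 9.21 to 40.4 ± 6.88 (−0.68, adjusted p = 0.035), and was not called without DMSO replicate 3 (−0.57) or THZ531 replicate 3 (−0.55). None of the 17 was called higher by limma, edgeR or DESeq2, and in limma 4 were higher and 7 lower with an adjusted p under 0.05.

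The ESRP targets were named here after their values were seen. FGFR2 (log2 difference 0.41), CD44 (0.39) and CTNND1 (0.48) were higher with adjusted p under 0.05 but under 1.5-fold, and were at −0.08, −0.10 and −0.02 with libraries scaled to RPL34. ENAH differed by 0.08 (adjusted p = 0.12), by −0.17 with the same total and by −0.42 with RPL34. The fall of ESRP2 thus stood beside no call in the total level of these 4 genes, and which of their exons were used is not analysed here.

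The drug targets and the identity of the cells were read from the same table. CDK12 was at 6762 ± 105 in DMSO and 8835 ± 357 in THZ531 (log2 difference 0.39, −0.11 scaled to RPL34), and CDK13 at 3918 ± 149 and 3863 ± 44.8 (−0.02, adjusted p = 0.70). The inhibitor acts on the proteins, so these levels check no label. All 8 epithelial and ovarian carcinoma markers were detected, with summed normalised values from 435984 to 446692 in DMSO and from 555188 to 567568 in THZ531, and 1 of them, PAX8, was called lower. Of 9 markers of other cell types, CD3E was at 0 in all libraries and the sum of the 9 went from between 1999 and 2252 to between 3587 and 3827. COL1A1 (995 to 2190) and COL3A1 (724 to 1080) made up most of that sum in both groups. They and VWF were called higher, beside 15.7% of all loci, and of these genes only COL1A1 remained called with libraries scaled to the same total. The log2 differences were −0.39 for PTPRC, −0.46 for ACTA2, −0.16 for PECAM1, 0.01 for CD14 and 0.27 for DES. None of these was called. The part of the markers in the changes of the regulators was not tested.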

How the data were processed

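OVCAR3 cells treated with DMSO or THZ531 were profiled by polyA RNA-seq, 3 libraries per group (TruSeq Stranded kit). Per the labels and methods, the authors aligned reads to hg38 with STAR and counted them with featureCounts over the loci of the FAST DB annotation. The counts were divided by DESeq2 size factors. STAR was version 2.7.5a in the submitters' notes, whereas the methods of the study name an earlier version. The deposited values are this signal per locus, normalised between libraries and not per length.

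Each value was a whole multiple of the smallest one in its library. Of values up to 1000 reads, 100% lay within 0.05 of a whole read, and the recovered reads on genes were 60146046 to 70986130 per DMSO library and 53054048 to 57953296 per THZ531 library. Of counts from 1 to 20, 64.5% were even, so both ends of a fragment may have been counted and reads are not independent molecules.

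The main test was limma 3.58.1 in R 4.3.3 with a trend on log2(value + 1), fitted to 17568 loci, those reaching 10 or more in 3 or more libraries. Alternatives were edgeR 4.0.16 and DESeq2 1.42.0 on recovered reads, other pseudocounts, minimums, thresholds and scalings, a replicate block, and each library left out. The rule for calls follows the study's thresholds. The fit was tested on simulated data. Ratios within a library were compared by exact permutation (scipy 1.17.1). Exons and introns came from GENCODE v44 and genome sequence from hg38. Strands of loci without a symbol were inferred from identifier order, which was right for 95.92% of 24540 named loci. The 10 regulators and the gene lists were chosen with earlier results of these data known. All 10, every called gene of the lists, the relatives of the 10, every called inner locus, CDK12, CDK13 and RPL34 are named. Replicates differed by more than counting noise, and where cultures were not separate p-values measure technical spread only.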

Additional observations from a re-analysis of the deposited data

How the results depend on the processing

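Of the regulators, RBM47, ESRP2 and KHDRBS3 kept their direction and their call in all 19 alternatives, QKI kept its call in 11, and the number called lay between 3 and 6. Directions turned under scaling only for KHDRBS1 (−0.012 with RPL34) and RBFOX2 (−0.10 with the same total, −0.35 with RPL34), and among genes read beside them for ENAH (−0.17 and −0.42), FGFR2 (−0.083 with RPL34), CD44 (−0.10), CTNND1 (−0.015) and CDK12 (−0.11). These turns follow from the shift that a scaling adds to loci of these levels. With each library left out, the log2 difference of the MBNL2 intron 5 locus ran from −0.24, without DMSO replicate 3, to 1.61, without DMSO replicate 2. Likewise, the log2 ratio of MBNL2 to MBNL1 differed by −0.022 to 0.134, and was below 0 without replicate 1 of either group. Loci inside the regulators that were called numbered 7 of 14 with no minimum, 6 higher and 1 lower. With a minimum of 50 they numbered 2 of 2, where the distal MBNL1 locus passed only through its THZ531 libraries. With no minimum, some had reads only in DMSO or only in THZ531. These counts therefore support nothing. Other regulators called numbered 7 of 15 with a minimum of 50 and 6 of 22 at 2-fold. NOVA2 passed the minimum of 50 only through its DMSO libraries. The 6 at 2-fold include RBM24, NOVA2, CELF6 and RBM20, which passed the main minimum only through the group in which they were higher. Their part in these counts supports nothing. Of all loci, 8360 of 26960 were called with no minimum, 5541 of 14174 with a minimum of 50 and 4042 of 17568 at 2-fold. Target genes called numbered 6 of 17 with the same total and 7 of 17 with RPL34, all lower. Of all loci, 32.0% and 42.8% were called lower under these scalings. All loci called numbered 6948, 4042 at 2-fold, 6863 by edgeR and 6788 by DESeq2. Same-numbered replicates did not deviate together over all loci tested (correlations from −0.039 to 0.019). By this measure the numbers showed no pairing of the samples, but with 3 replicates per group it cannot exclude one. With a replicate block 6918 loci and the same number of regulators, 4, were called, and the smallest exact permutation p of a ratio, by sign changes over the pairs, was 0.25. The fewest reads lay behind the inner loci, where 0 reads allow up to 3 per library if reads were independent. With 3 libraries per group the exact permutation test of a ratio cannot go below p = 0.1.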
